A study of Mus musculus with 10 samples.

Results

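The 33 genes described here are 20 genes of glucose uptake, glycolysis and pyruvate use and 13 further genes known to be induced when oxygen is low. They were chosen by name, with earlier results of these data known, and all 33 were found among the 16154 genes measured. Messenger RNA was sequenced from alveolar type II (AT2) cells, the surfactant-making cells of the alveolar epithelium, sorted from lungs of C57BL/6 mice aged 8 to 10 weeks. One library was made from each of 5 HOIL-1L knockout mice (replicates 1 to 5) and 5 wild-type mice (replicates 2 to 6). HOIL-1L, encoded by Rbck1, helps to form the linear ubiquitin chain assembly complex. The genotype label reads HOIL-1L -/-, whereas the series design text names CreSPC/HOIL-1L fl/fl, a floxed allele with Cre driven by the surfactant protein C promoter, which is active in AT2 cells. Under the second description only cells with Cre activity would lose the gene. The labels name no oxygen exposure or other treatment for either genotype. Every title carries a mouse number and an unexplained letter N.

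Glycolysis splits glucose into pyruvate in the cytosol and yields ATP without oxygen, and lactate dehydrogenase then turns pyruvate into lactate. When oxygen is low, the transcription factors HIF-1 and HIF-2 escape degradation, pair with ARNT and bind short ACGTG or GCGTG motifs near their target genes. These targets include glucose transporters and most glycolytic enzymes, secreted factors such as VEGF-A, and genes that curb mitochondrial oxygen use. AT2 cells make VEGF-A in the normal lung and use glucose and lactate to fuel surfactant synthesis.

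The sequences below are shown because Ldha, Hk2 and Pfkfb3 had the largest differences per standard error among the members, and Pgk1 is a textbook HIF target. Each is the 250 bases upstream of a gene start in RefSeq, GRCm38.p6 (mm10), read 5′ to 3′ on the strand of the gene. Capitals mark every ACGTG or GCGTG on either strand, so that the reverse complements CACGT and CACGC are also in capitals. A palindrome CACGTG counts as 2 overlapping matches.
Ldha, chr7:46845554-46845803, plus strand: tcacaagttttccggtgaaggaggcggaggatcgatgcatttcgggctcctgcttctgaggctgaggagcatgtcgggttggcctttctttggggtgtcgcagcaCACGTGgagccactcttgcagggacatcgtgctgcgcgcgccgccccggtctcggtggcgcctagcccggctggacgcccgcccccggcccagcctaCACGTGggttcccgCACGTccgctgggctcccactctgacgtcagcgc
Hk2, chr6:82774455-82774704, minus strand: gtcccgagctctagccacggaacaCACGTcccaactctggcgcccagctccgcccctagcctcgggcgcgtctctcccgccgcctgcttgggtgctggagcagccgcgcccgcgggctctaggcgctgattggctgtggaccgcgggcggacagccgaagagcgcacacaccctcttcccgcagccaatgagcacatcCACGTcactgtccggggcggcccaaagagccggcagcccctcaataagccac
Pfkfb3, chr2:11502091-11502340, minus strand: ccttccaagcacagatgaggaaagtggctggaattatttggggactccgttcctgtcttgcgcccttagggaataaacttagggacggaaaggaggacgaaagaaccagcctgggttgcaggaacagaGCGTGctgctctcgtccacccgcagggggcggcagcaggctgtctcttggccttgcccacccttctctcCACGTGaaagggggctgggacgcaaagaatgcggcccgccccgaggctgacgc
Pgk1, chrX:106186850-106187099, plus strand: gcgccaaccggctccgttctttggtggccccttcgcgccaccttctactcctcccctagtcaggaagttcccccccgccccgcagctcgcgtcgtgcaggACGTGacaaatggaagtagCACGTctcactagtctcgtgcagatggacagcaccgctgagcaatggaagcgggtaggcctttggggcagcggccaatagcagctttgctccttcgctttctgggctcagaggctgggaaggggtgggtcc
The Ldha window held 5 matches, of which the nearest began 34 bases upstream of the start. The Pfkfb3 window held 3, and those of Hk2 and Pgk1 held 2 each. A window was found for 31 of the 33 members, by symbol. Where RefSeq listed several starts for a gene, the one matching most GENCODE transcript starts was used, and 24 of the 31 windows (77.4%) held at least 1 match. Of all 32851 RefSeq windows of this length, 38.6% held one. Among the tested genes, the first listed window held one in 57.5% of 9754, against 23 of 31 members (74.2%) by the same first listed window. A match is a run of letters, not evidence of binding, and no binding was measured here.

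Column totals of the deposited table lay between 6.94 and 7.43 M, and the depth behind them was roughly 7.69 to 13.2 M reads by library. Values below, called "per M", are the deposited normalized counts over 7.14, the average column total in M. All 12 AT2 markers were tested, and the lowest of their values was 538 per M in any library. Of 4 neutrophil markers looked for, 0 were matched, and lymphocyte markers summed to at most 0.121 per M in knockout libraries and 0.830 per M in wild-type libraries. Macrophage markers summed to between 21.1 and 36.1 per M in knockout libraries and between 19.5 and 30.3 per M in wild-type libraries. Markers of alveolar type I cells, which AT2 cells give rise to, summed to between 2649 and 3106 per M in knockout libraries and between 2774 and 3353 per M in wild-type libraries. Of the 10 alveolar type I markers, 8 had log2 fold changes (knockout minus wild type, limma) below 0, with a median of -0.17. At an unadjusted p under 0.05, 1 was lower and 0 higher, against 9.48% of all tested genes, and 0 passed. With the 8 libraries named below, 4 were lower and 1 higher at that level, against 13.1%. There the median was -0.21, and 0 passed. Fibroblast markers summed to between 1.47 and 8.34 per M in knockout libraries and between 5.75 and 11.7 per M in wild-type libraries. All 4 tested fibroblast markers had log2 fold changes below 0 (limma), with a median of -0.73, and -0.88 with 8 libraries. With 10 libraries, 2 of them had an unadjusted p under 0.05, against 9.48% of all tested genes, and 0 passed the threshold. Markers of airway club cells summed to between 4873 and 9037 per M in knockout libraries. In wild-type libraries they summed to between 4635 and 9179 per M, and all these sums exceeded those of the alveolar type I markers. Endothelial markers summed to between 9.44 and 13.9 per M in knockout libraries and between 8.22 and 13.9 per M in wild-type libraries. Ciliated cell markers are given by run below. The part of these cell types in the differences below was not tested. Rbck1 itself read 59.3, 29.8, 36.4, 38.0 and 38.8 per M in knockout 1 to 5, against 29.7, 56.7, 57.8, 56.1 and 56.6 per M in wild type 2 to 6. The library labelled knockout 1 lay among the wild-type values and the library labelled wild type 2 among the knockout values, and the difference had an exact two-sided permutation p of 0.206 (smallest possible 0.00794). Without these 2 libraries the Rbck1 difference was -0.67 on the log2 scale, given with no test because Rbck1 chose them. Labels were kept, and the member counts and the members with the smallest p are also given for the other 8 libraries.

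The members spanned more than 3 orders of magnitude when expressed per kb of annotated exon. Ldhb and Ldha, the heart-type and muscle-type subunits of lactate dehydrogenase, stood first and second at 166 and 147 per M per kb (mean of 10 libraries), followed by the aldolase Aldoa at 134. Pyruvate kinase Pkm reached 72.3 and triose phosphate isomerase Tpi1 50.3 per M per kb. Among the other hypoxia-induced genes, the collagen prolyl hydroxylase P4ha1 was highest at 43.5 per M per kb, above Gapdh at 42.3 and Gpi1 at 39.2. Vegfa stood at 21.4 and the glucose transporter Slc2a1 at 8.92 per M per kb. At the low end were the carbonic anhydrase Car9 at 0.485 and the fructose-2,6-bisphosphate enzyme Pfkfb3 at 0.472 per M per kb. Neuronal enolase Eno2 (0.104) and the vasodilator peptide gene Adm (0.0554) were lowest, and both missed the filter of 1 per M in 5 libraries. With the longest coding transcript as the length, Ldha led at 268 per M per kb, ahead of Aldoa at 251 and Ldhb at 200, and P4ha1, at 44.2, stood below Gapdh at 123 and Gpi1 at 87.6. The order of these members depended on the length used.

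**Figure D1:**
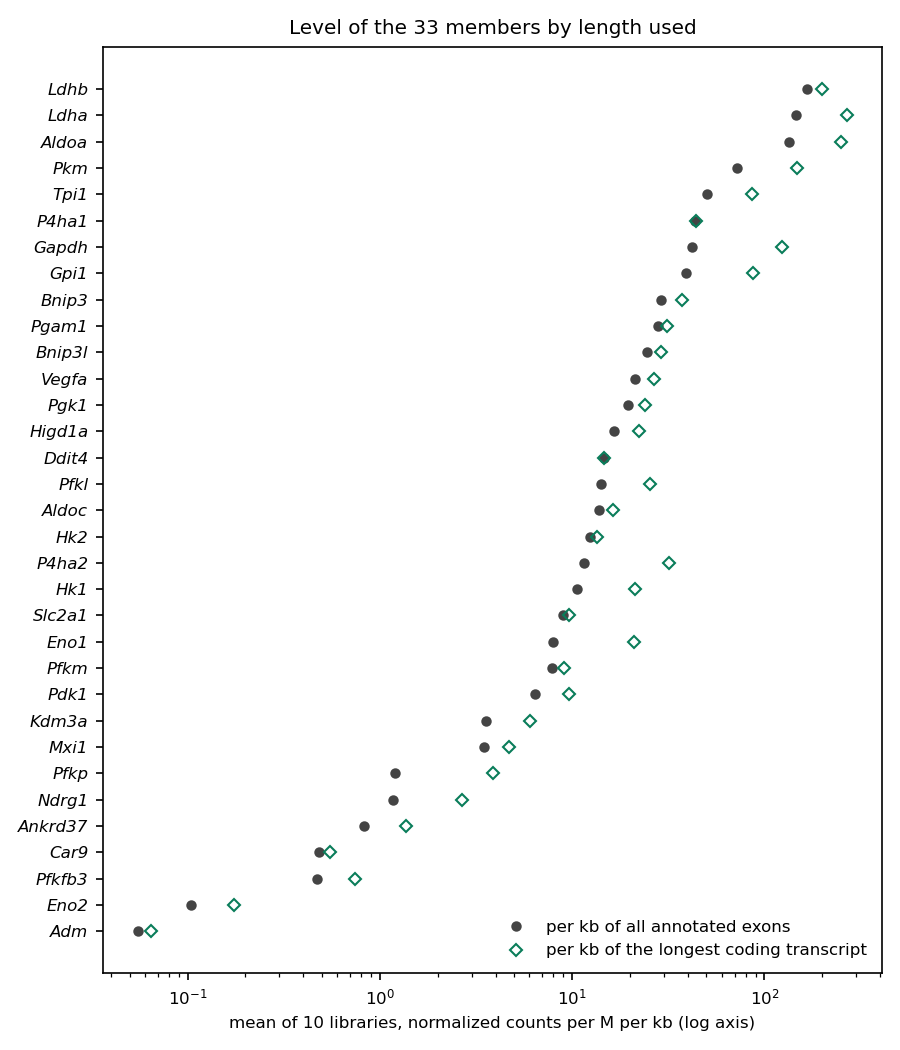
Mean level of each of the 33 members over the 10 libraries, on a log axis in normalized counts per M per kb, with the length taken as all annotated exons (filled circles) or as the longest coding transcript (open diamonds). Ldhb, Ldha and Aldoa lead under both lengths, in a different order, and Eno2 and Adm lie lowest under both.

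Enolase 2 and adrenomedullin were low in every library. Eno2 read 0.120, 0.940, 0.271, 0.502 and 0.0751 per M in knockout 1 to 5, against 1.29, 0.293, 0.354, 0.781 and 0.258 per M in wild type 2 to 6. Adm, a classical hypoxia-induced gene, was listed at 0 in 4 knockout libraries and at 0.0760 per M in knockout 5, against 0.222, 0.0814, 0.232, 0.125 and 0.162 per M in wild type 2 to 6. The knockout and wild-type values of Adm did not overlap, but each rests on few reads or none. Neither gene reached the filter, and neither was tested. Of the 31 tested members, 19 belonged to glycolysis and pyruvate use and 12 to the hypoxia-induced group.

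The main question was whether loss of HOIL-1L altered these genes in AT2 cells. With 10 libraries, 0 of the 31 members passed an adjusted p of 0.05 (limma, Benjamini-Hochberg adjustment over 12946 genes), where 0% of all tested genes passed. At an unadjusted p under 0.05, Hk2 and Pfkfb3 were higher and Ldha and Eno1 lower in knockout cells, which is 4 of 31 members, against 9.48% of all tested genes. Log2 fold changes, given as knockout minus wild type, ranged between -0.22 and 0.52 over the members, with a median of -0.03, against 0.01 over all tested genes. They were below 0 for 18 of 31 members, against 48.7% of all tested genes. The 95% interval lay inside a 1.5-fold difference in either direction for 26 of 31 members, and the exceptions were Hk2, Pfkfb3, Ankrd37, Ndrg1 and Car9. None of the 31 tested members had groups that did not overlap, against 1.59% of all tested genes.

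Without the libraries labelled knockout 1 and wild type 2, the picture was similar for most members and sharper for 3 of them. Sex, read off Xist and Y-linked genes, was female in wild type 2, knockout 2 and knockout 3 and male in the others. Leaving out wild type 2 thus left female libraries among the knockouts only, so genotype and sex are partly confounded in the 8 libraries. Again 0 of 31 members passed, against 0.402% of all tested genes (52), and Hk2, Pfkfb3, Ldha and Higd1a had an unadjusted p under 0.05, against 13.1% of all tested genes. The median member difference was -0.05 on the log2 scale, and 20 of 31 lay below 0, against 49.9% of all tested genes. Pfkfb3 and Ldha were the 2 of the 31 tested members whose 4 knockout and 4 wild-type values did not overlap, against 6.71% of all tested genes. The values of Rbck1 chose the 8 libraries, and no member took part in that choice.

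**Figure D2:**
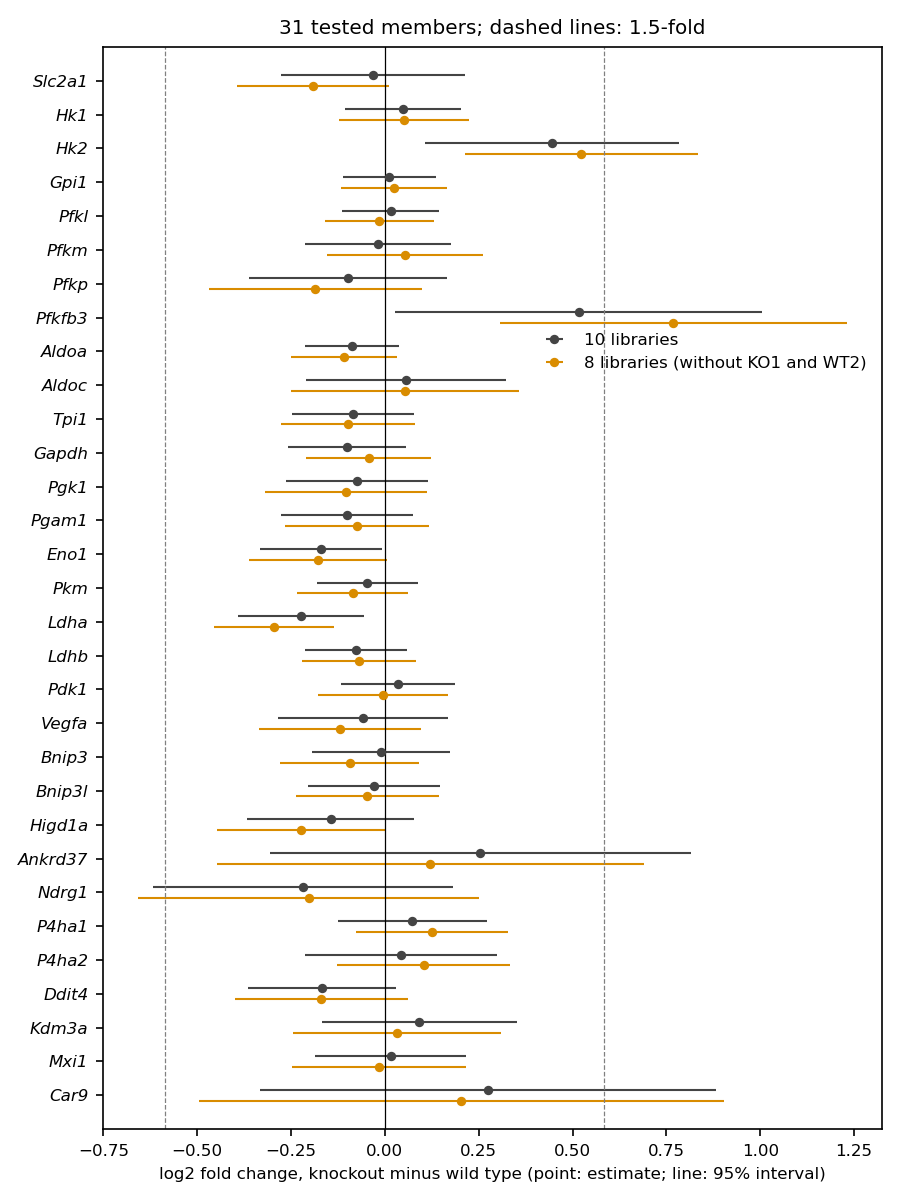
Log2 fold change, knockout minus wild type, of the 31 tested members (point, limma estimate; line, 95% interval), with all 10 libraries in grey and with the 8 libraries in orange. Hk2 and Pfkfb3 lie to the right of 0 and Ldha to the left in both comparisons, and most other intervals stay within the dashed lines at 1.5-fold.

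Glucose enters AT2 cells through transporters such as Slc2a1 (GLUT1), and hexokinases trap it as glucose 6-phosphate. Slc2a1 (ENSMUSG00000028645, chr4:119108711-119137983, plus strand, mm10) read 35.6, 28.3, 28.0, 33.1 and 29.2 per M in knockout 1 to 5, against 23.1, 29.8, 35.1, 36.4 and 34.3 per M in wild type 2 to 6. The groups overlapped, and the highest knockout and the lowest wild-type value were those of the 2 libraries whose Rbck1 went against the label. The log2 fold change was -0.03 ± 0.12 (SE; limma adjusted p = 0.948) with 10 libraries and -0.19 ± 0.10 (adjusted p = 0.404) with 8. Slc2a1 lay between 23.1 and 28.3 per M in the 3 female libraries, sex being read off Xist and Y-linked genes. The 7 male ones lay between 29.2 and 36.4 per M. The 3 female libraries were all in the first run of mouse numbers, described below. The difference by sex was not tested, and the share of all tested genes separated in this way was not determined.

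Hexokinase 2, the inducible isoform that HIF-1 is known to raise, had the largest difference of the glucose-entry genes. Hk2 (ENSMUSG00000000628, chr6:82725025-82774454, minus strand) read 58.3, 94.5, 110, 89.0 and 74.7 per M in knockout 1 to 5, against 53.1, 46.8, 62.2, 62.8 and 87.3 per M in wild type 2 to 6. The library labelled knockout 1 lay within the wild-type values, and wild type 6 lay within the knockout values. Means were 85.2 ± 19.6 per M in knockout and 62.5 ± 15.4 per M in wild-type libraries (SD, n = 5 each), with a log2 fold change of 0.45 ± 0.16 (limma adjusted p = 0.397). With 8 libraries the means were 92.0 ± 14.5 and 64.8 ± 16.7 per M in knockout and wild-type cells, and the log2 fold change was 0.52 ± 0.15 (adjusted p = 0.154). Leaving out wild type 6 as well gave 0.68 with an adjusted p of 0.0236, and adding sex as a covariate to the 8 libraries gave 0.36 with an adjusted p of 0.423, both with limma. Within the first run of mouse numbers alone the difference was 0.76, and within the second 0.22. The constitutive hexokinase Hk1 read between 85.4 and 104 per M in knockout libraries and between 83.2 and 100 per M in wild-type libraries, with a log2 fold change of 0.05 in both comparisons.

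**Figure D3:**
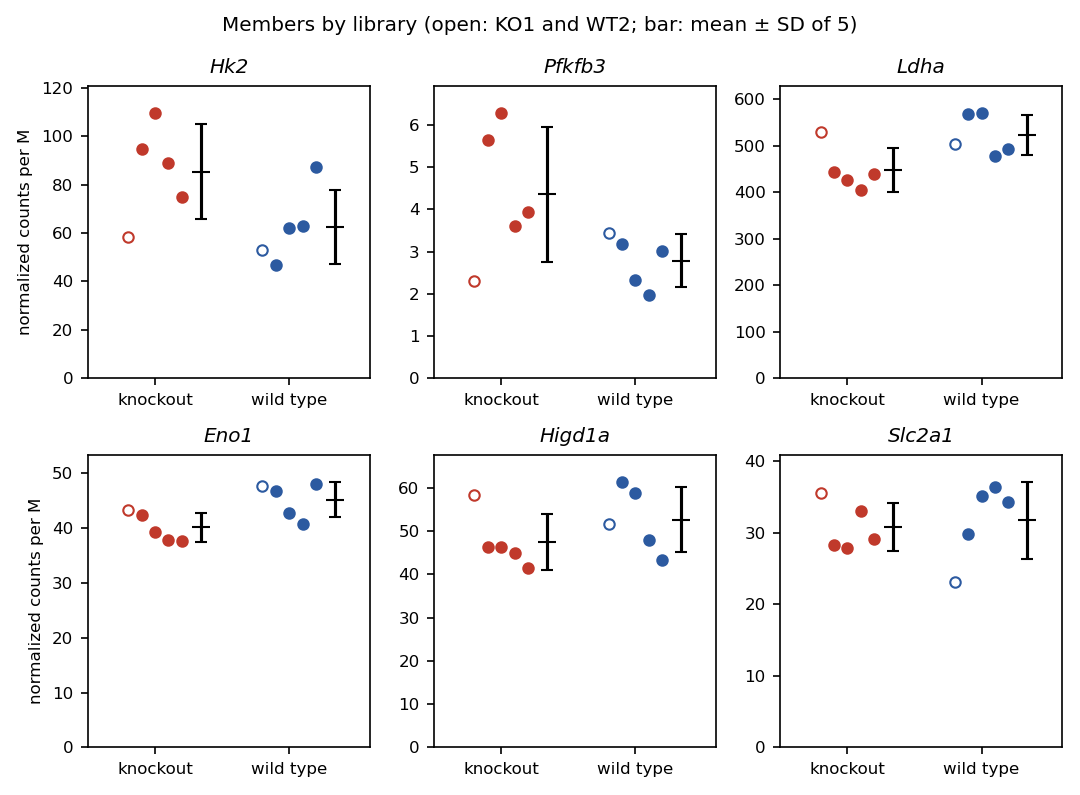
Normalized counts per M of 6 members in each knockout (red, left) and wild-type (blue, right) library, in order of replicate number, with the mean ± SD of 5 libraries beside each group; open circles are the libraries labelled knockout 1 and wild type 2. Hk2 and Pfkfb3 tend higher and Ldha and Eno1 lower in knockout libraries, and the open circles sit on the far side of their own group for Pfkfb3 and Ldha in knockout.

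In the upper part of the pathway, 4 of the 8 tested members lay above and 4 below 0, with 10 and with 8 libraries. Pfkfb3 makes fructose 2,6-bisphosphate, the strongest activator of phosphofructokinase, and is a known HIF target. Pfkfb3 (ENSMUSG00000026773, chr2:11471433-11554077, minus strand) read 2.31, 5.63, 6.29, 3.60 and 3.93 per M in knockout 1 to 5, against 3.45, 3.19, 2.32, 1.96 and 3.01 per M in wild type 2 to 6. Knockout 2 to 5 all exceeded every wild-type library, whereas the library labelled knockout 1 was among the lowest. The log2 fold change was 0.52 ± 0.23 with 10 libraries (limma adjusted p = 0.509) and 0.77 ± 0.22 with 8 (adjusted p = 0.158), where means were 4.86 ± 1.30 per M in knockout and 2.62 ± 0.574 per M in wild-type libraries (SD, n = 4 each). The gene rests on few reads, so its counting error is large. The 3 female libraries lay between 3.45 and 6.29 per M and the 7 male ones between 1.96 and 3.93 per M. With sex as a covariate, the 8 libraries gave 0.47 (limma adjusted p = 0.469).

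The remaining upper enzymes differed little. Glucose-6-phosphate isomerase Gpi1 read between 247 and 260 per M in knockout libraries and between 236 and 269 per M in wild-type libraries. The liver-type phosphofructokinase Pfkl read between 94.0 and 96.2 per M in knockout libraries and between 86.3 and 99.8 per M in wild-type libraries, with a coefficient of variation of 3.77% over all 10, the smallest of the 33 members. The muscle-type Pfkm (22.4 to 29.2 per M in knockout, 23.0 to 28.0 per M in wild-type libraries) and the platelet-type Pfkp (11.3 to 18.2 and 13.6 to 18.7 per M in knockout and wild-type libraries) had adjusted p-values of 0.964 and 0.828 (limma, 10 libraries). Aldolase A splits fructose 1,6-bisphosphate. Aldoa (ENSMUSG00000030695, chr7:126795234-126800751, minus strand) read 390, 402, 363, 362 and 371 per M in knockout 1 to 5, against 389, 409, 422, 384 and 400 per M in wild type 2 to 6. Knockout 3 to 5 lay below every wild-type library, but the groups overlapped through knockout 1 and 2, and the log2 fold change was -0.09 ± 0.06 (limma adjusted p = 0.657), and -0.11 ± 0.07 with 8 libraries (adjusted p = 0.501). Aldoc and Tpi1 had log2 fold changes of 0.06 and -0.09 with 10 libraries.

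All 5 tested enzymes of the lower, ATP-yielding part of glycolysis had log2 fold changes below 0, with 10 libraries and with 8, but each difference was small and 0 passed the test. Their median was -0.10 with 10 libraries and -0.09 with 8. Of all tested genes, 48.7% lay below 0 with 10 libraries and 49.9% with 8. The count of 5 held under equal column totals, TMM and median-ratio scaling. All 5 also lay below 0 for the second minus the first run of mouse numbers, with a median of -0.13. The share of all tested genes below 0 was 51% between the runs. Eno1 (ENSMUSG00000063524, chr4:150236721-150248879, plus strand), the main enolase, read 43.3, 42.4, 39.3, 37.7 and 37.7 per M in knockout 1 to 5, against 47.7, 46.7, 42.7, 40.7 and 48.0 per M in wild type 2 to 6. Wild type 4 and 5 lay within the knockout range and the other wild-type libraries above it. The means were 40.1 ± 2.63 per M in knockout and 45.2 ± 3.27 per M in wild-type libraries (SD, n = 5 each), with a log2 fold change of -0.17 ± 0.08 (limma adjusted p = 0.510), and -0.18 ± 0.09 with 8 libraries (adjusted p = 0.392).

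Glyceraldehyde-3-phosphate dehydrogenase, often used as a reference transcript, varied as much between libraries as between genotypes. Gapdh (ENSMUSG00000057666, chr6:125161715-125166467, minus strand) read 161, 183.3, 175, 156 and 166 per M in knockout 1 to 5, against 202, 181, 192, 156 and 175 per M in wild type 2 to 6. The groups overlapped across most of their range, with a log2 fold change of -0.10 ± 0.07 (limma adjusted p = 0.684), and -0.04 without the 2 libraries named above. Phosphoglycerate kinase makes the first ATP of the pathway. Pgk1 (ENSMUSG00000062070, chrX:106187100-106203699, plus strand) read 45.9, 44.4, 40.4, 36.7 and 45.3 per M in knockout 1 to 5, against 44.7, 51.6, 47.4, 39.3 and 41.5 per M in wild type 2 to 6, and these ranges overlapped. Its log2 fold change was -0.10 with 8 libraries (limma adjusted p = 0.7). Phosphoglycerate mutase Pgam1 read between 46.4 and 56.1 per M in knockout libraries and between 50.1 and 64.7 per M in wild-type libraries. Pkm, the last enzyme before pyruvate, read between 331 and 377 per M in knockout libraries and between 350 and 399 per M in wild-type libraries. Near-identical copies elsewhere in the genome were sought, at 95% identity or more over 200 bases. Gapdh had 78 such genes, of which 21 were among the genes measured. Bnip3 had 5, Ldha and Pgk1 4 each, Eno1 3, and Pkm and Higd1a 2 each. Gpi1, Pfkp, Tpi1, Pgam1, Ldhb, Bnip3l and Ndrg1 had 1 each. The levels of all these members are uncertain where reads could be split.

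Lactate dehydrogenase A, which favours the step that makes lactate, had the smallest adjusted p of the members in both genotype comparisons. Ldha (ENSMUSG00000063229, chr7:46841475-46855627, plus strand) read 529, 444, 426, 406 and 439 per M in knockout 1 to 5, against 505, 569, 571, 479 and 492 per M in wild type 2 to 6. Knockout 2 to 5 lay below every wild-type library, and the library labelled knockout 1 lay among the wild-type values. Means were 449 ± 47.2 per M in knockout and 523 ± 43.8 per M in wild-type libraries (SD, n = 5 each). The log2 fold change was -0.22 ± 0.08 (limma adjusted p = 0.391). With 8 libraries, the means were 429 ± 16.9 per M in knockout and 528 ± 49.2 per M in wild-type cells (SD, n = 4 each). There the log2 fold change was -0.30 ± 0.08, with a 95% interval between -0.46 and -0.14 (adjusted p = 0.111). The first and second runs alone gave -0.21 and -0.28. In sorted bulk cells, fewer cells of a type and less RNA per cell cannot be told apart.

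Ldhb, which favours the use of lactate, read between 245 and 264 per M in knockout libraries and between 240 and 287 per M in wild-type libraries, a log2 fold change of -0.08. Pdk1, which holds pyruvate back from the mitochondrion, read between 46.5 and 55.3 per M in knockout libraries and between 46.3 and 52.6 per M in wild-type libraries. Per kb of exon, the ratio of Ldha to Ldhb was 0.961, 0.797, 0.795, 0.781 and 0.851 in knockout 1 to 5, against 0.848, 0.940, 0.982, 0.885 and 0.972 in wild type 2 to 6. The groups overlapped only through the 2 libraries whose Rbck1 went against the label. The mean ratio was 0.837 ± 0.0744 in knockout and 0.925 ± 0.0574 in wild-type libraries (SD, n = 5 each), with an exact two-sided permutation p of 0.0794 and 0.333 after adjustment over 7 pairs. With 8 libraries it was 0.806 ± 0.0309 in knockout and 0.944 ± 0.0438 in wild-type libraries, p = 0.0286 (exact permutation, the smallest possible), and 0.200 after adjustment.

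The hexokinase pair differed in the opposite direction, with more spread. The ratio of Hk2 to Hk1 was 0.961, 1.31, 1.84, 1.38 and 1.14 in knockout 1 to 5, against 0.899, 0.755, 0.886, 1.08 and 1.39 in wild type 2 to 6. Wild type 6 exceeded 4 of the 5 knockout libraries, and the exact permutation p was 0.0952 (0.333 adjusted), or 0.143 (0.5 adjusted) with 8 libraries. The other 5 pairs, Pfkm/Pfkl, Pfkp/Pfkl, Aldoc/Aldoa, P4ha2/P4ha1 and Bnip3/Bnip3l, had adjusted exact permutation p-values between 0.778 and 0.865 with 10 libraries. A ratio within a library shows unequal change of its members and does not say which of them differed. The 7 pairs were tested after earlier results of these data were known.

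**Figure D4:**
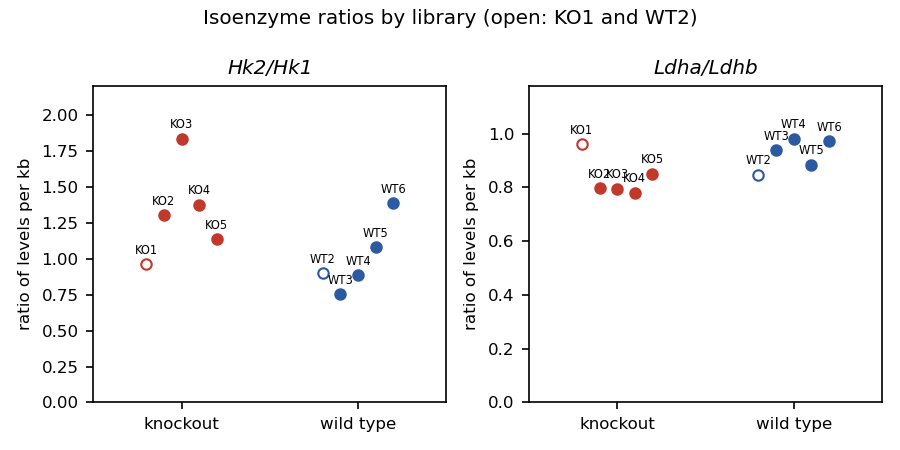
Ratio of levels per kb of annotated exon for Hk2 over Hk1 and for Ldha over Ldhb in each knockout (red, left) and wild-type (blue, right) library; open circles are the libraries labelled knockout 1 and wild type 2. Ldha over Ldhb lies between 0.781 and 0.851 in knockout 2 to 5 and between 0.885 and 0.982 in wild type 3 to 6, whereas Hk2 over Hk1 overlaps between the groups.

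Vascular endothelial growth factor A, which AT2 cells supply to the alveolar capillaries, showed no detectable difference between genotypes. Vegfa (ENSMUSG00000023951, chr17:46016993-46032369, minus strand) read 83.3, 78.5, 97.4, 101 and 86.7 per M in knockout 1 to 5, against 73.0, 88.9, 100, 118 and 88.3 per M in wild type 2 to 6. The lowest and the highest value were both from wild-type libraries. The log2 fold change was -0.06 ± 0.11 with a 95% interval between -0.28 and 0.17 (limma adjusted p = 0.883), and -0.12 ± 0.10 with 8 libraries (adjusted p = 0.645).

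Among the mitochondrial hypoxia-induced genes, Higd1a, a small protein of the inner membrane that modulates respiration, had the largest difference. Higd1a (ENSMUSG00000038412, chr9:121848563-121858362, minus strand) read 58.3, 46.4, 46.2, 45.0 and 41.4 per M in knockout 1 to 5, against 51.6, 61.4, 58.8, 47.9 and 43.3 per M in wild type 2 to 6. Knockout 2 to 5 formed a narrow band that wild type 6 fell into. The log2 fold change was -0.14 ± 0.10 (limma adjusted p = 0.677), and -0.22 ± 0.11 with 8 libraries (adjusted p = 0.381). The mitophagy receptors Bnip3 (58.3 to 76.2 per M in knockout, 59.0 to 74.9 per M in wild-type libraries) and Bnip3l (79.9 to 104 and 83.4 to 101 per M in knockout and wild-type libraries) had log2 fold changes of -0.01 and -0.03 with 10 libraries.

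The other 8 hypoxia-induced genes divided into 6 above and 2 below 0 with 10 libraries, and 5 above and 3 below with 8, and 0 passed. Ddit4 (REDD1), an inhibitor of mTORC1 induced by hypoxia and other stresses, had the smallest p of them. Ddit4 (ENSMUSG00000020108, chr10:59949669-59951834, minus strand) read 24.8, 23.9, 26.6, 26.3 and 20.03 per M in knockout 1 to 5, against 27.7, 25.0, 26.0, 30.2 and 27.6 per M in wild type 2 to 6. Wild type 2, 5 and 6 lay above every knockout library, and the log2 fold change was -0.17 ± 0.09 (limma adjusted p = 0.589), and -0.17 ± 0.11 with 8 libraries (adjusted p = 0.515). The histone demethylase Kdm3a read between 26.6 and 37.2 per M in knockout libraries and between 23.0 and 34.7 per M in wild-type libraries. P4ha1 read between 161 and 207 per M in knockout libraries and between 141 and 206 per M in wild-type libraries, and P4ha2 between 54.3 and 81.9 and between 59.3 and 93.7 per M in knockout and wild-type libraries. The MYC antagonist Mxi1 read between 22.1 and 25.4 per M in knockout libraries and between 19.0 and 25.5 per M in wild-type libraries.

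Car9 and Ankrd37, which respond to hypoxia in many cell types, were near the filter in either genotype. Car9 read between 0.703 and 1.80 per M in knockout libraries and between 0.477 and 1.84 per M in wild-type libraries, and Ankrd37 between 1.15 and 2.11 and between 0.459 and 1.83 per M in knockout and wild-type libraries. Their 95% intervals reached past 1.5-fold, so a difference of that size could not be told from none at this depth. Ndrg1, a stress-induced gene, read 7.47, 9.80, 7.87, 5.71 and 4.96 per M in knockout 1 to 5, against 9.17, 5.32, 9.31, 9.98 and 8.08 per M in wild type 2 to 6. In the second run both knockout libraries lay below all 3 wild-type libraries, while in the first run the groups overlapped. The interaction of genotype and run was -0.96 ± 0.31 on the log2 scale and did not pass (limma adjusted p = 0.651), and 0.0154% of all tested genes passed that test. Ndrg1 was singled out after its values were seen.

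The HIF subunits themselves were not among the members but stand upstream of them. Hif1a averaged 98.6 ± 6.89 per M in knockout and 94.0 ± 7.67 per M in wild-type libraries (SD, n = 5 each). Epas1, which encodes HIF-2α, averaged 1104 ± 26.5 per M in knockout and 982 ± 70.9 per M in wild-type libraries, a log2 fold change of 0.17 (limma adjusted p = 0.458). Every knockout value, between 1076 and 1147 per M, lay above every wild-type value, between 908 and 1073 per M. The exact two-sided permutation p for Epas1 was 0.00794, the smallest possible and not adjusted for other genes. It was 0.0159 as each library was left out, a value that the lack of overlap fixes in advance. Among all tested genes, 1.59% likewise had groups that did not overlap. With 8 libraries the Epas1 difference was 0.15. Arnt, their partner, averaged 54.8 ± 4.65 per M in knockout and 51.0 ± 4.15 per M in wild-type libraries. HIF activity is set mainly through protein stability, which was not measured.

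The mouse numbers in the titles form 2 consecutive runs, a second with knockout 4 and 5 and wild type 4 to 6 and a first with knockout 1 to 3 and wild type 2 and 3. The labels call neither a batch. The female libraries, wild type 2, knockout 2 and knockout 3, were all in the first run, and the second run was all male. Sex was not a covariate in the fit between runs, so run and sex are partly confounded there. With genotype as a covariate, 0 of 31 members passed between the runs (limma), against 0.626% of all tested genes (81), and 7 had an unadjusted p under 0.05, against 15.8% of all tested genes. Differences were below 0 for 19 of 31 members, against 51% of all tested genes, and 0 had runs that did not overlap, against 2.85%. The members given next were named after their values were seen. Aldoc, the brain-type aldolase, averaged 40.0 ± 6.13 per M in the second and 50.4 ± 3.87 per M in the first run (SD, n = 5 each), a log2 difference, second minus first, of -0.34 ± 0.10 (limma adjusted p = 0.115). Kdm3a averaged 32.5 ± 3.78 per M in the second and 26.3 ± 3.12 per M in the first run, a difference of 0.33 ± 0.10 (adjusted p = 0.115). P4ha2 and Bnip3l were lower in the second run by 0.30 and 0.21 on the log2 scale, and Vegfa and Slc2a1 were higher by 0.23 and 0.22, with adjusted p-values between 0.154 and 0.313.

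**Figure D5:**
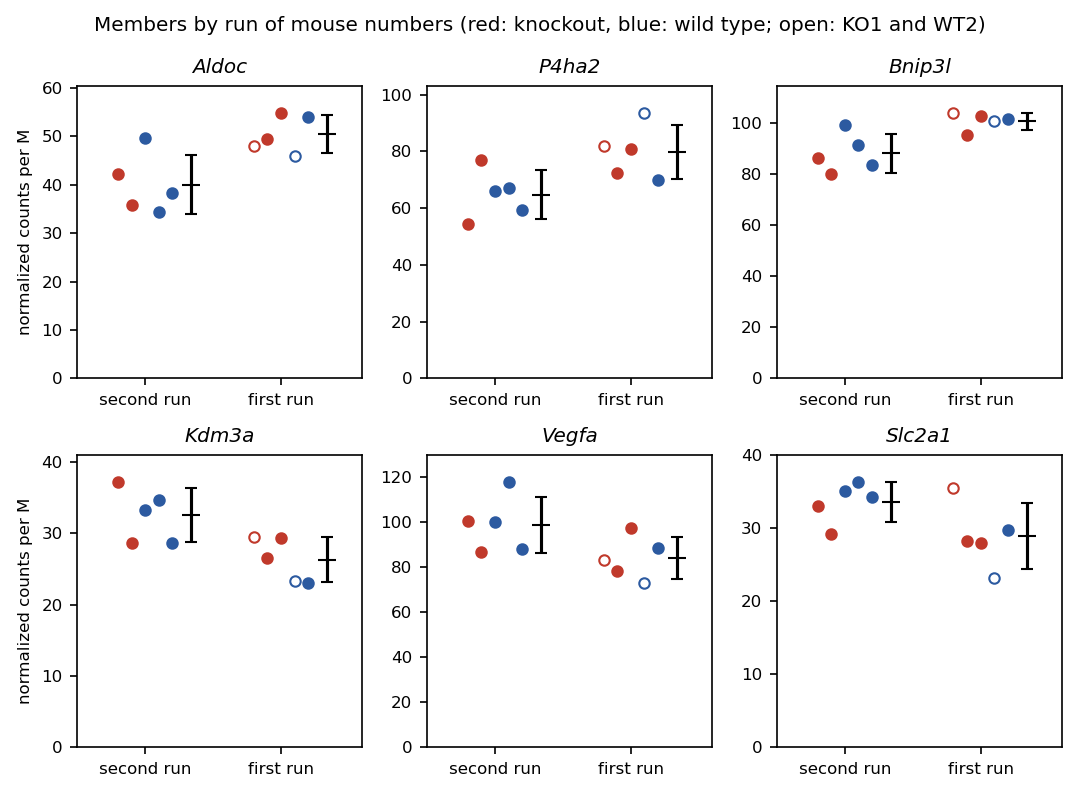
Normalized counts per M of 6 members in the second (left) and first (right) run of mouse numbers, with knockout libraries in red, wild-type libraries in blue, open circles for the libraries labelled knockout 1 and wild type 2, and the mean ± SD of the 5 libraries of each run. Aldoc, P4ha2 and Bnip3l tend lower and Kdm3a, Vegfa and Slc2a1 higher in the second run, and the 2 runs overlap for all 6.

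Other measures moved with the run, and they too were picked after their values were seen. Fos, Fosb and Dusp1, immediate early genes that cell dissociation is known to induce, were higher in the second run and passed the test (limma adjusted p = 0.0305 for Fos and Fosb and 0.0127 for Dusp1). None of the 3 passed without wild type 2, without wild type 3 or without wild type 5, nor without wild type 2 and knockout 1 together, and Fos and Fosb did not pass without wild type 6 or without knockout 4. Ciliated cell markers summed to between 243 and 292 per M in the second run and between 160 and 219 per M in the first. All 5 of them were higher in the second run, and 3 passed (limma, smallest adjusted p = 0.0169). Macrophage markers summed to between 19.5 and 21.9 per M in the second run and between 21.6 and 36.1 per M in the first, and 2 of the 4 tested were lower in the second run and passed (limma, smallest adjusted p = 0.000891). Of 10 markers of alveolar type I cells, 5 were higher in the second run at an unadjusted p under 0.05 and 0 passed. Of all tested genes, 15.8% had an unadjusted p under 0.05 between the runs. Ppp1r3c, which targets a phosphatase to glycogen and is also induced by hypoxia, was lower in the second run by 0.56 on the log2 scale (adjusted p = 0.00653), a call that ended without wild type 2 and knockout 1. Their part in the differences of the members between runs was not tested.

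Single libraries did not carry the whole group in one direction. Of the 19 tested glycolytic members, 14, 11, 6, 7 and 6 lay above their 10-library median in knockout 1 to 5, against 10, 12, 14, 4 and 11 in wild type 2 to 6. Of the 12 hypoxia-induced members, 8, 2, 9, 7 and 3 did so in knockout 1 to 5, against 7, 5, 8, 7 and 4 in wild type 2 to 6. Wild type 5 was low for glycolytic members and knockout 2 for hypoxia-induced members, and both genotypes held libraries with high and with low counts.

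Genes next to the members in metabolism likewise had 0 calls with the genotypes as labelled. Of 28 tested genes for other isoenzymes and pyruvate or lactate handling, 0 passed with 10 or 8 libraries. With 10, 9.48% of all tested genes had an unadjusted p under 0.05. Among the 28, 3 were higher and 2 lower at that level. They include Pfkfb2, a second fructose-2,6-bisphosphate enzyme, at 63.8 ± 4.91 per M in knockout and 50.9 ± 7.17 per M in wild-type libraries (log2 fold change 0.33, limma adjusted p = 0.314). Mpc1, a subunit of the mitochondrial pyruvate carrier, averaged 48.5 ± 2.55 per M in knockout and 56.9 ± 6.02 per M in wild-type libraries (-0.22, adjusted p = 0.397). Pdk4, a pyruvate dehydrogenase kinase induced by fasting and fatty acids, averaged 4.79 ± 3.93 per M in knockout and 10.2 ± 3.87 per M in wild-type libraries (-1.23, adjusted p = 0.341).

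Of 26 further tested hypoxia-induced genes of textbook lists, 0 passed with 10 or 8 libraries. With 10, 13 lay above and 13 below 0. Of the 26, 2 were higher and 2 lower at an unadjusted p under 0.05, against 9.48% of all tested genes. Angptl4, a secreted inhibitor of lipoprotein lipase that responds to hypoxia and to fatty acids, read 11.9, 18.2, 7.37, 3.27 and 8.61 per M in knockout 1 to 5, against 37.9, 14.8, 27.2, 16.3 and 15.6 per M in wild type 2 to 6. Knockout 2 alone overlapped the wild-type range, and the log2 fold change was -1.23 (limma adjusted p = 0.314). In the second run alone Angptl4 and Pdk4 passed, at -1.74 and -1.89 (adjusted p = 0.0170 and 0.0198). The adenylate kinase Ak4 averaged 2.31 ± 0.770 per M in knockout and 1.39 ± 0.701 per M in wild-type libraries (0.59, adjusted p = 0.505), and differed by 0.92 with 8 libraries (adjusted p = 0.140).

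The pentose phosphate pathway is the branch that makes NADPH from glucose 6-phosphate. All 7 of its tested genes had log2 fold changes below 0 with 10 and with 8 libraries, and 0 passed. An unadjusted p under 0.05 was found for 2 in each, against 9.48% of all tested genes with 10 libraries and 13.1% with 8. The count of 7 below 0 was not taken under equal column totals. The share of all tested genes below 0 was 48.7% with 10 libraries and 49.9% with 8. Pgd averaged 214 ± 18.3 per M in knockout and 243 ± 27.2 per M in wild-type libraries (-0.18, limma adjusted p = 0.513), and Pgls 26.6 ± 1.18 and 31.7 ± 4.34 per M in knockout and wild-type libraries (-0.24, adjusted p = 0.433). Of 21 dissociation-induced genes, 0 passed with 10 or 8 libraries, and 14 lay above 0 with 10. There 2 were higher and 1 lower at an unadjusted p under 0.05, against 9.48% of all tested genes. Junb was the closest, at 85.6 ± 21.4 per M in knockout and 65.5 ± 10.6 per M in wild-type libraries (0.36, adjusted p = 0.510), and 0.56 with 8 libraries (adjusted p = 0.0515).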

How the data were processed

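Per the labels' protocols, polyA RNA of sorted AT2 cells went into NEBNext Ultra libraries, which were read on an Illumina NextSeq instrument. Of tools and builds, mm10, edgeR 3.14.0 and bcl2fastq 2.17 appear in the submitters' processing notes, with no role. The aligner, annotation, strand setting and normalization method were not given in the sources used here. One table was deposited by the authors, with 16154 Ensembl genes, and its deposited values are a signal (normalized counts, not whole numbers), so no count test was run. Symbols were found for 16026 genes, and 128 had none. All 10 columns were matched to samples by title.

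After division by the average column total, 12946 genes that reached 1 per M in 5 or more of the 10 libraries were tested with limma-trend (limma 3.58.1, R 4.3.3) on log2(value + 0.5), two-sided, with Benjamini-Hochberg adjustment; calls were made at 0.05. On that scale the fold changes of low genes are understated. The comparisons were knockout minus wild type with 10 libraries, the same with 8, and second minus first run with genotype as covariate. Single values and isoenzyme ratios were tested by exact permutation. Libraries carry separate mouse numbers and were taken as separate mice. The labels do not state that replicate numbers pair the samples, and the main fits did not pair them. Same-numbered libraries had deviations correlated at 0.0265 to 0.314. Differently numbered ones of the same run lay between -0.162 (knockout 1 with wild type 2) and 0.272 (knockout 3 with wild type 2). These correlations do not settle whether the numbers pair the samples. Lengths and coordinates come from GENCODE M21 and promoters from RefSeq, GRCm38.p6. The fits were checked on simulated data. Other work used Python 3.11.15, numpy 2.4.6, pandas 2.3.3, scipy 1.17.1 and matplotlib 3.10.9.

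The members and lists were chosen with earlier results of these data known. Library values and tests were given in full by a rule: Vegfa, Slc2a1, Ldha and Pgk1 always, and the 8 members with the smallest p in each genotype comparison. The other members are given to account for all 33, and those of the run comparison were chosen after their values were seen. Genes of a related list were taken from the 4 with the smallest p in the 8 libraries. Alternatives were pseudocounts of 0.1 and 2, other filters, scalings and covariates, each run alone, the replicate block, and leaving out each library.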

Additional observations from a re-analysis of the deposited data

Results flagged for a closer look

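Of 62 sets of 5 libraries (31 members in each genotype), 3 held a library far from the other 4 (Dixon's test, critical value 0.71), where chance alone flags about 1 set in 20. All 3 were in knockout 4. Pgam1 read 46.4 per M there, against 54.0 to 56.1 per M in the other knockout libraries. Ankrd37 read 2.11 per M, against 1.15 to 1.43 per M in the others. Kdm3a read 37.2 per M, against 26.6 to 29.4 per M in the others.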

How the results depend on the processing

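Single alternative values were taken for the genes chosen as described above, not all named in the text, and for the Hk2/Hk1 and Ldha/Ldhb ratios. Genes were judged by adjusted p and the ratios by unadjusted exact permutation p, at 0.05. Of 1146 such values, 1105 kept their direction and their side of the threshold. Another 9 turned direction, and 32 passed where the main value had not. With 10 libraries the difference for Slc2a1 became 0.014 with run and 0.037 with sex as a covariate, was 0.21 within the first run, and lay between -0.14 and 0.022 as each library was left out. That for Vegfa became 0.094 in the first run alone and lay between -0.14 and 0.030 as each library was left out. The replicate block, a pairing that the labels do not state, gave 1 passing member with 10 libraries (Hk2, 0.70, limma adjusted p = 0.0194). It gave 7 related genes and 261 genes in all. Knockout 1 and wild type 6 share their number with no other library, so these estimates rest on replicates 2 to 5. With 8 libraries the block gave 2 members (Hk2, 0.66, adjusted p = 0.0274, and Ldha, -0.34, adjusted p = 0.0450), 10 related genes and 397 genes in all. There knockout 2 and wild type 6 have no partner, so the estimates rest on replicates 3 to 5. Not every library correlated best with its own number.

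With 10 libraries, run as a covariate gave 1 passing gene and the second run alone 41, of which 2 were related genes. Leaving out each library gave 0 to 4 genes (4 without knockout 1). With 8 libraries, the 52 passing genes became 10 with no filter and 27 with sex as a covariate, and 3 related genes passed with run as a covariate. Leaving out each library there gave 0 to 1 members (Hk2 without wild type 6), 0 to 2 related genes and 19 to 100 genes (19 without wild type 5, 26 without wild type 4, 32 without knockout 3, 84 without knockout 4 and 100 without wild type 6). Between the runs, 81 genes became 51 with a filter at 5 per M and 28 without wild type 2 and knockout 1, and the 4 related genes became 2 with no filter and 0 without wild type 2 and knockout 1. Leaving out each library gave 0 to 1 members (Aldoc, -0.41, adjusted p = 0.0380, without wild type 4, and Kdm3a, 0.43, adjusted p = 0.0461, without knockout 5), 1 to 5 related genes and 18 to 139 genes (18 without wild type 2, 139 without knockout 1). The cause of these shifts was not tested.

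The mean ratios over 10 libraries depended on the length used, an alternative chosen after seeing the data. With the longest coding transcript in place of all exons they were 0.631 in place of 1.16 for Hk2/Hk1, 0.361 in place of 0.556 for Pfkm/Pfkl, 0.153 in place of 0.0845 for Pfkp/Pfkl, 0.0646 in place of 0.104 for Aldoc/Aldoa, 1.33 in place of 0.881 for Ldha/Ldhb, 0.723 in place of 0.267 for P4ha2/P4ha1 and 1.29 in place of 1.18 for Bnip3/Bnip3l. The length does not alter a difference between genotypes. Depth limits Eno2, Adm, Car9, Ankrd37 and Pfkfb3 most. Equal column totals left 16 of 31 members below 0 with 10 libraries and 17 with 8, in place of 18 and 20, and 2 of the 3 mitochondrial members below 0 with 10.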
